A study of Homo sapiens with 16 samples.

Results

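SNORD15A and SNORD15B, which lie in introns of the RPS3 gene, and SNORD95 and SNORD96A, which lie in introns of the RACK1 gene, are 4 small nucleolar RNAs (snoRNAs) of the 413 entries in the deposited snoRNA table. They were chosen because SNORD15A was lower, and SNORD95 higher, in extracellular vesicles (EVs) isolated with next-gen ATPS, in which vesicles are drawn from one polymer-rich water phase into another, than in EVs isolated with the exoRNeasy kit, so their values in that contrast are given as a description and were not tested. The host genes do not divide the 4 by that contrast. SNORD15A and SNORD95 had opposite directions in both cell lines, SNORD15B had opposite directions in the 2 lines, and SNORD96A overlapped between the methods in both.

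The libraries are of small RNA from a pair of human cancer lines, PC3 (prostate) and MDA-MB-231 (breast, MDA-231 in the labels), both WT in genotype and untreated according to the labels. The labels give the same share of serum in the growth medium of both lines, while the methods give a higher share for MDA-MB-231 than for PC3. Each line gave 4 materials with 2 libraries each, 16 libraries in all: EVs isolated from conditioned media (CM) by next-gen ATPS, by exoRNeasy (labelled Qiagen) and by ultracentrifugation (UC, labelled VC and read as UC), and the EV donor cells. The donor cells were kept in medium without serum before CM was collected, RNA of ATPS and UC EVs and of cells was extracted with TRIzol, and the exoRNeasy kit used its own columns, so that EV isolation and RNA extraction cannot be told apart in a comparison with exoRNeasy. Whether both libraries of a group stem from separate cultures is stated in neither the labels nor the methods, so a p-value here covers spread from library to library only, and that spread may be technical.

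The 4 belong to the C/D box class of snoRNAs. Being of the kind that lies in introns, they are cut from the introns of their host genes and kept in the nucleolus, bound by fibrillarin and its partner proteins. They carry a box C near the start and a box D near the end, and pair with ribosomal RNA to direct methylation of its riboses. All 4 are known as guides for RNAs of the large ribosomal subunit. RPS3 encodes a protein of the small ribosomal subunit, and RACK1 encodes a scaffold protein that sits on the small subunit.

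The annotated genes of SNORD15A, SNORD95 and SNORD96A are shown because reads of 18 to 35 bases were kept, so that every value counts fragments of such sequences. They are given 5′ to 3′ as DNA from hg38 at the positions of GENCODE v44, with capitals on TGATGA, the core of box C, and on the last CTGA, box D.
SNORD15A: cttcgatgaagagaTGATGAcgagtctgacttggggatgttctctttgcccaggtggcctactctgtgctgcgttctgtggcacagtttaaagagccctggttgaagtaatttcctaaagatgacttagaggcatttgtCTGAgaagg
SNORD95: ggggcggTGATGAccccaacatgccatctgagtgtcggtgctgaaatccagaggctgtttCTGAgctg
SNORD96A: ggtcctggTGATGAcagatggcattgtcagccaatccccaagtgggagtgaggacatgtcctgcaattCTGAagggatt

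SNORD15A (chr11:75400391-75400538, plus strand, 148 bases) lies in intron 1 of 6 of RPS3, and SNORD15B (plus strand, 146 bases) in intron 5. SNORD95 (chr5:181243312-181243379, minus strand, 68 bases) lies in intron 1 of 7 of RACK1, and SNORD96A (chr5:181241814-181241892, minus strand, 79 bases) in intron 2. Both RPS3 snoRNAs are longer than both RACK1 snoRNAs. On the strand of the gene, TGATGA stood in the first 25 bases of 72.2% of 237 C/D box genes with a match in the annotation and of 0.794% of 126 H/ACA box genes, and CTGA in the last 20 bases of 94.9% and 8.73%. These letters are common to the class and do not mark the 4 out.

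SNORD15A and SNORD15B were identical at 67.5% of aligned positions, with a longest common run of 23 bases at their 3′ ends (positions 126 to 148 of SNORD15A). Reads that lie within that run cannot be assigned to one of them. SNORD95 and SNORD96A were identical at 51.1% of aligned positions and had no window of 18 bases in common. SNORD96A has a copy, SNORD96B, in the AMMECR1 gene on chromosome X, with 92.4% identity and 4 windows of 18 bases in common. SNORD96B had 0 reads in 12 libraries and at most 9 reads in the other 4, where SNORD96A had 745 to 16745 reads. Of the windows of 18 bases, 18.3% of SNORD15A, 19.4% of SNORD15B, 11.8% of SNORD95 and 21.0% of SNORD96A also occurred elsewhere in the genome. For the RPS3 pair this includes the common run. The share of reads from such windows was not tested.

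The deposited values are named TPM but are shares of the snoRNA reads of a library on a scale that sums to the same total in each, with no length term. They are written TPM here. The EV libraries held 41519 to 400429 snoRNA reads and the cell libraries 16635 to 10849128, so that 1 read stood for 0.0922 to 60.1 TPM. In MDA-MB-231, replicate 1 had more snoRNA reads than replicate 2 in all 4 materials, and the MDA-MB-231 cell library of replicate 2 was the shallowest of all. Of 6 epithelial miRNAs looked for in the miRNA table, 3 were listed, with 6 and 11 reads in PC3 cells, 6 and 0 reads in MDA-MB-231 cells and 0 to 2 reads in an EV library, so the labelled epithelial cell type rests on few reads here.

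SNORD15A was highest in exoRNeasy EVs of both lines. It had 1673 and 1541 TPM in PC3 ATPS EVs, 17947 and 17562 TPM in PC3 exoRNeasy EVs, 1437 and 1656 TPM in PC3 UC EVs, and 546 and 511 TPM in PC3 cells. In MDA-MB-231 it had 4495 and 1346 TPM in ATPS EVs, 8849 and 5722 TPM in exoRNeasy EVs, 5352 and 2712 TPM in UC EVs, and 1090 and 601 TPM in cells. All 4 exoRNeasy libraries lay above all other libraries, and all 4 cell libraries lay below all EV libraries. Among snoRNA entries it ranked 12 and 13 in the PC3 exoRNeasy libraries and 63 and 72 in the PC3 ATPS libraries. Of the 8 groups, the PC3 exoRNeasy EVs came first and the MDA-MB-231 exoRNeasy EVs next, and these did not overlap. The 4 groups of ATPS and UC EVs followed, and neighbours among them overlapped. In MDA-MB-231, replicate 1 was higher than replicate 2 in all 4 materials, as were its snoRNA reads. The part of depth in this was not tested.

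SNORD15B, the second snoRNA of RPS3, was far lower in cells than in any EV library, and it was the only one of the 4 whose order of ATPS and exoRNeasy EVs turned round between the lines with no overlap in either. It had 627 and 674 TPM in PC3 ATPS EVs, 1291 and 1452 TPM in PC3 exoRNeasy EVs, 1387 and 1539 TPM in PC3 UC EVs, and 92.3 and 87.5 TPM in PC3 cells. In MDA-MB-231 it had 1025 and 493 TPM in ATPS EVs, 429 and 365 TPM in exoRNeasy EVs, 1546 and 999 TPM in UC EVs, and 48.5 and 60.1 TPM in cells. The value of 60.1 TPM is 1 read, with an exact Poisson interval (95%, counting error only) of 1.52 to 335 TPM, and the exoRNeasy values of MDA-MB-231 rest on 48 and 16 reads. The 3 groups at the top, PC3 UC, PC3 exoRNeasy and MDA-MB-231 UC EVs, overlapped with their neighbours. The exoRNeasy EVs of MDA-MB-231 were the lowest of the EV groups and did not overlap with the group above.

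SNORD95, the first snoRNA of RACK1, had the highest level per base of its length among the 4 in 13 of 16 libraries, and was higher in ATPS and UC EVs than in exoRNeasy EVs or cells. It had 5647 and 5636 TPM in PC3 ATPS EVs, 2732 and 2728 TPM in PC3 exoRNeasy EVs, 6243 and 7749 TPM in PC3 UC EVs, and 3169 and 3029 TPM in PC3 cells. In MDA-MB-231 it had 7768 and 5730 TPM in ATPS EVs, 3099 and 3214 TPM in exoRNeasy EVs, 11643 and 8728 TPM in UC EVs, and 2405 and 2044 TPM in cells. The 8 libraries of ATPS and UC EVs all lay above the 8 libraries of exoRNeasy EVs and cells. In the upper block, PC3 UC and MDA-MB-231 ATPS EVs overlapped. In the lower block, MDA-MB-231 exoRNeasy EVs and PC3 cells overlapped.

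SNORD96A, the second snoRNA of RACK1, had the narrowest range of the 4, from 1116 to 1861 TPM over all 16 libraries. It had 1116 and 1493 TPM in PC3 ATPS EVs, 1198 and 1138 TPM in PC3 exoRNeasy EVs, 1169 and 1284 TPM in PC3 UC EVs, and 1791 and 1543 TPM in PC3 cells. In MDA-MB-231 it had 1236 and 1198 TPM in ATPS EVs, 1348 and 1117 TPM in exoRNeasy EVs, 1861 and 1412 TPM in UC EVs, and 1562 and 1262 TPM in cells. Every group overlapped with the next one in order, except that the lowest, PC3 exoRNeasy EVs, lay just below MDA-MB-231 ATPS EVs.

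**Figure D1:**
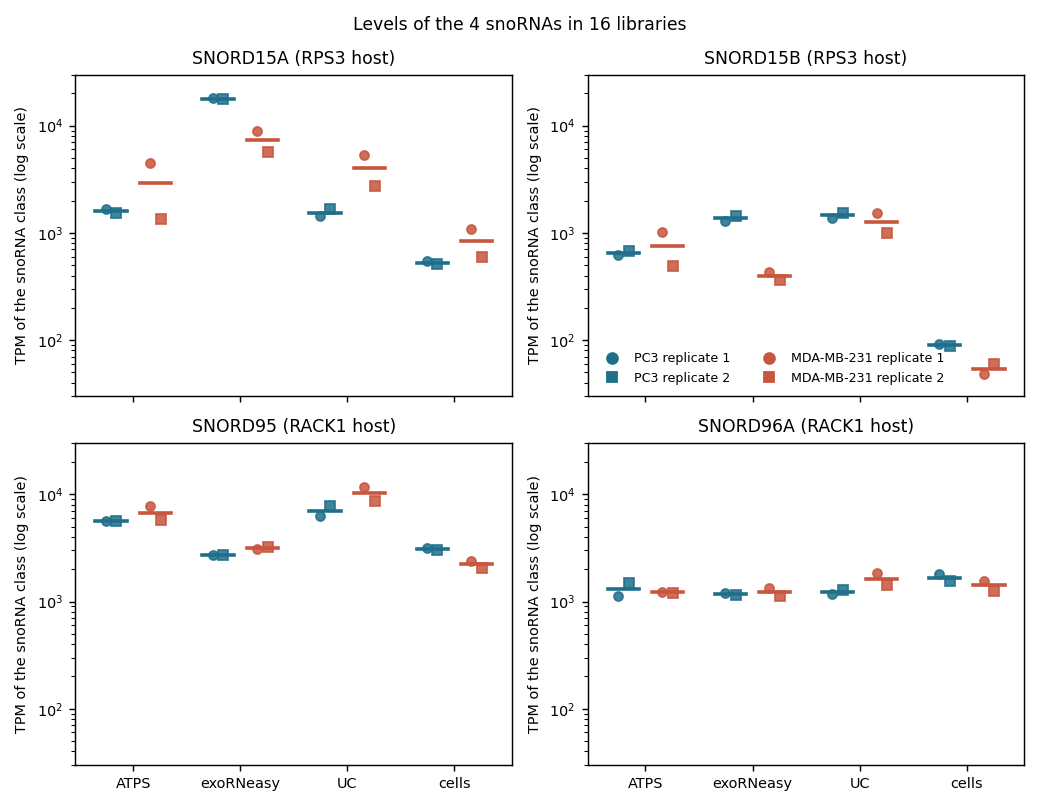
Level of each of the 4 snoRNAs (TPM of the snoRNA class, log scale) in 16 libraries, by material and cell line. Points are libraries and lines are means of 2. SNORD15A peaks at 17562 and 17947 TPM in PC3 exoRNeasy EVs, SNORD15B is below 100 TPM in all 4 cell libraries, SNORD95 is highest in ATPS and UC EVs, and SNORD96A stays between 1116 and 1861 TPM.

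The contrast by which the 4 were chosen was next-gen ATPS against exoRNeasy EVs. Over both lines SNORD15A averaged 2264 ± 1494 TPM in ATPS EVs and 12520 ± 6180 TPM in exoRNeasy EVs (SD, n = 4 each), a log2 fold change of -2.50 (standard error 0.34) among the 357 entries that passed the filter on low values. SNORD95 averaged 6195 ± 1049 TPM in ATPS EVs and 2943 ± 251 TPM in exoRNeasy EVs (SD, n = 4 each), a log2 fold change of 1.06 (standard error 0.17). Averaged over the lines, their partners in the same hosts did not follow them, although SNORD15B was lower in ATPS EVs in PC3, as SNORD15A was. SNORD15B averaged 705 ± 227 TPM in ATPS EVs and 884 ± 567 TPM in exoRNeasy EVs (SD, n = 4 each), with a log2 fold change of -0.11 (standard error 0.29). SNORD96A averaged 1261 ± 163 TPM in ATPS EVs and 1200 ± 104 TPM in exoRNeasy EVs (SD, n = 4 each), with a log2 fold change of 0.07 (standard error 0.20), near the median of 0.05 over all entries.

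Within the lines, the log2 fold change of SNORD15A between ATPS and exoRNeasy EVs was -3.47 in PC3 and -1.53 in MDA-MB-231, and that of SNORD95 was 1.05 in PC3 and 1.08 in MDA-MB-231. SNORD15B had -1.07 in PC3 and 0.84 in MDA-MB-231, and SNORD96A had 0.14 in PC3 and -0.01 in MDA-MB-231. The MDA-MB-231 values of the RPS3 pair depend on single libraries. Without replicate 1 of the MDA-MB-231 ATPS EVs they were -2.40 for SNORD15A and 0.32 for SNORD15B, and without replicate 2 they were -0.66 for SNORD15A and 1.37 for SNORD15B. In PC3, SNORD96A was -0.07 without replicate 2 of the ATPS EVs and 0.35 without replicate 1. All 4 libraries of ATPS EVs were below all 4 of exoRNeasy EVs for SNORD15A, as for 1.68% of entries, and above them for SNORD95, as for 3.36%. SNORD15B was below in PC3 and above in MDA-MB-231 with no overlap in either, which held for 9 of 357 entries (2.52%). All 4 passed the filter, and nothing is read from these shares, since the members were picked on this contrast.

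**Figure D2:**
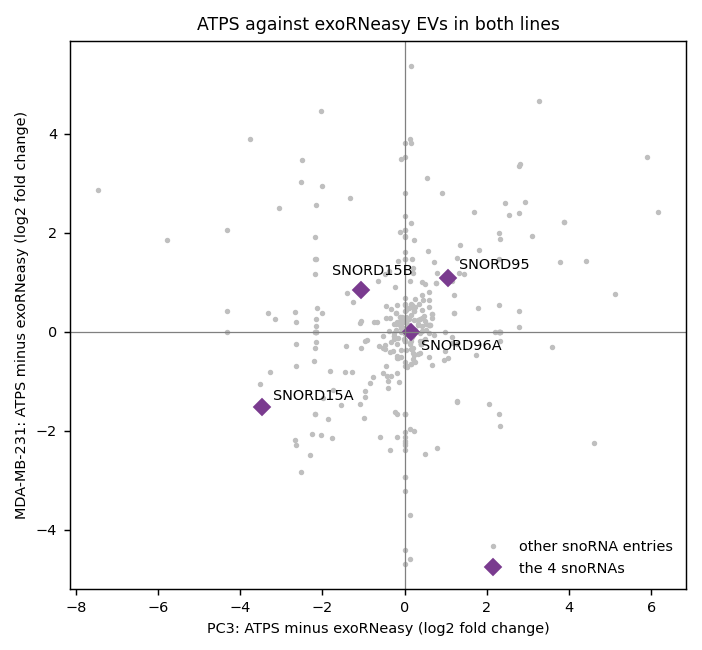
Log2 fold change of ATPS over exoRNeasy EVs in PC3 (horizontal) against that in MDA-MB-231 (vertical) for 357 snoRNA entries (grey) and the 4 snoRNAs (diamonds), all from one limma fit. SNORD15A lies at -3.47 and -1.53, SNORD95 at 1.05 and 1.08, SNORD96A near 0, and SNORD15B in the quadrant of opposite signs.

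UC EVs, which took no part in that contrast, were compared with the donor cells. SNORD15B, SNORD15A and SNORD95 were higher in UC EVs, and SNORD96A was not called. SNORD15B averaged 1368 ± 257 TPM in UC EVs and 72.1 ± 21.2 TPM in cells (SD, n = 4 each), 19.1-fold higher in the fit. SNORD15A averaged 2789 ± 1797 TPM in UC EVs and 687 ± 271 TPM in cells (SD, n = 4 each), 3.70-fold higher. SNORD95 averaged 8591 ± 2277 TPM in UC EVs and 2662 ± 529 TPM in cells (SD, n = 4 each), 3.19-fold higher. SNORD96A averaged 1432 ± 303 TPM in UC EVs and 1540 ± 216 TPM in cells (SD, n = 4 each).

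In limma with Benjamini-Hochberg adjustment over 357 entries, the log2 fold change of UC EVs over cells was 4.25 (standard error 0.29, adjusted p = 3.73e-08) for SNORD15B, 1.89 (standard error 0.34, adjusted p = 0.000354) for SNORD15A, 1.68 (standard error 0.17, adjusted p = 1.45e-06) for SNORD95 and -0.12 (standard error 0.20, adjusted p = 0.666) for SNORD96A. So 3 of 4 were called higher, where 43.1% of all entries were. The median of all entries was itself 1.48, so SNORD15A and SNORD95 stood close to the typical entry (percentiles 57.1 and 52.7), SNORD15B above most (83.8) and SNORD96A below most (19.6). In all 4 UC libraries SNORD15A, SNORD15B and SNORD95 were above all 4 cell libraries, as were 33.1% of entries. Scaling decides how many entries count as higher. The values as deposited gave 154 higher and 22 lower, quantile normalization 61 and 70, centring on entries seen in all libraries 108 and 69, and edgeR with TMM scaling 169 and 54, where the log2 fold changes of all entries shifted by a median of -2.11, -0.86 and -0.47. The 3 calls stood under each of these, with log2 fold changes of 2.63 to 4.27 for SNORD15B, 0.95 to 1.89 for SNORD15A and 0.81 to 1.68 for SNORD95 over 11 other settings. SNORD96A was called lower under the same 3 scalings, with log2 fold changes of -0.82, -0.98 and -0.61.

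Within PC3 the log2 fold change of UC EVs over cells was 4.01 (standard error 0.41, adjusted p = 8.55e-06, limma) for SNORD15B, 1.17 (0.24, adjusted p = 0.00303) for SNORD95, 1.54 (0.48, adjusted p = 0.0383) for SNORD15A and -0.44 (0.29, adjusted p = 0.343) for SNORD96A, where 15.1% of entries were called higher. The SNORD15A call in PC3 is fragile, since leaving out any of the 8 PC3 libraries raised its adjusted p in limma to between 0.0636 and 0.188. Without either UC or either cell library of PC3, 31 to 39 entries were called in either direction, against 60 with all libraries. Within MDA-MB-231 the log2 fold changes were 4.50 (0.41, adjusted p = 7.13e-07, limma) for SNORD15B, 2.18 (0.24, adjusted p = 3.14e-06) for SNORD95, 2.23 (0.48, adjusted p = 0.0015) for SNORD15A and 0.21 (0.29, adjusted p = 0.561) for SNORD96A, where 44.5% of entries were called higher. The sign of SNORD96A in MDA-MB-231 was negative under all 4 other scalings.

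**Figure D3:**
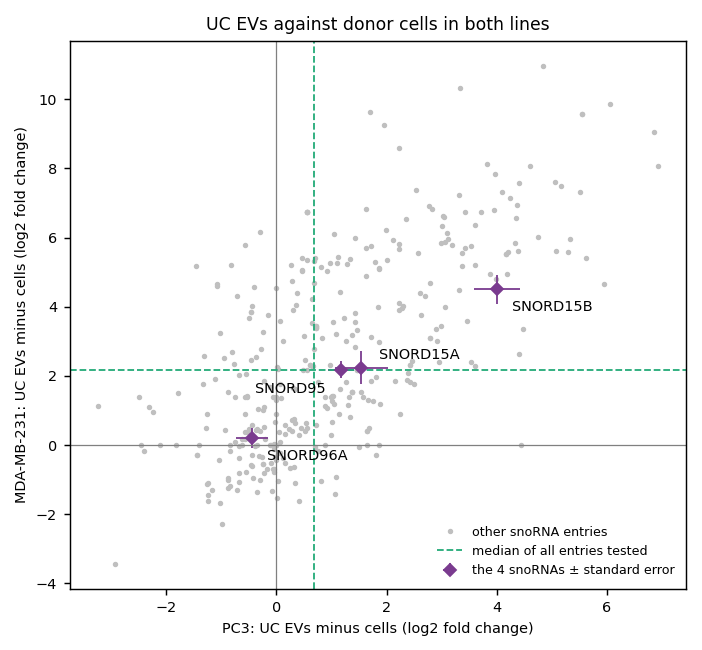
Log2 fold change of UC EVs over donor cells in PC3 (horizontal) and MDA-MB-231 (vertical) for 357 snoRNA entries (grey) and the 4 snoRNAs (diamonds, with standard errors of the limma fit). Dashed lines are the medians of all entries, 0.68 in PC3 and 2.18 in MDA-MB-231. SNORD15B lies beyond both medians, SNORD15A and SNORD95 lie near them in MDA-MB-231, and SNORD96A lies near 0.

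The difference between the lines in UC EVs over cells was tested as an interaction. None of the 4 passed in limma, where 11.5% of entries did. It was -1.02 (standard error 0.33, adjusted p = 0.0639) for SNORD95, -0.69 (0.68, adjusted p = 0.591) for SNORD15A, -0.49 (0.58, adjusted p = 0.658) for SNORD15B and -0.65 (0.41, adjusted p = 0.367) for SNORD96A, PC3 minus MDA-MB-231 on the log2 scale. For SNORD95, leaving out replicate 2 of the MDA-MB-231 UC EVs gave -1.23 with an adjusted p of 0.0252, and leaving out either MDA-MB-231 ATPS library gave 0.0441 or 0.043 in limma. The number of entries called was 41 with all libraries, 20 to 26 without a UC or cell library of PC3, and 85 without the cell library of replicate 1 of MDA-MB-231.

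The other comparisons share libraries with the one that chose the members, and are given as values. ATPS over UC EVs, both extracted with TRIzol, had a log2 fold change of -0.29 (standard error 0.34) for SNORD15A, against a median of -0.30 over all entries. It was -0.99 (0.29) for SNORD15B, -0.45 (0.17) for SNORD95 and -0.17 (0.20) for SNORD96A. With both lines pooled, the libraries of both methods overlapped for all 4. exoRNeasy over UC gave 2.21 (0.34) for SNORD15A, with all 4 exoRNeasy libraries above all 4 UC libraries as for 2.24% of entries, and -1.51 (0.17) for SNORD95, with all 4 below as for 9.52%. SNORD15B had -0.87 (0.29) and SNORD96A -0.24 (0.20), both with overlap when the lines were pooled. For SNORD15A and SNORD95 all 4 exoRNeasy libraries lay apart from the libraries of both other methods. Nothing is read from this, since both snoRNAs were chosen on ATPS against exoRNeasy EVs. Within each line, SNORD15A overlapped between ATPS and UC EVs, but SNORD95 was lower in ATPS than in UC EVs with no overlap. SNORD15B was lower in ATPS than in UC EVs with no overlap in PC3 only, and SNORD96A in MDA-MB-231 only. Between exoRNeasy and UC EVs, SNORD15B and SNORD96A overlapped in PC3, but in MDA-MB-231 both were lower in exoRNeasy EVs with no overlap.

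Against the donor cells, ATPS EVs had log2 fold changes of 1.60 for SNORD15A, 3.27 for SNORD15B, 1.23 for SNORD95 and -0.29 for SNORD96A, where the median of all entries was 0.69. The first 3 had all 4 ATPS libraries above all 4 cell libraries, as had 22.4% of entries. exoRNeasy EVs had 4.10 for SNORD15A, 3.38 for SNORD15B, 0.16 for SNORD95 and -0.35 for SNORD96A, with a median of 0.54. Here SNORD15A and SNORD15B were above in all 4 libraries, as were 17.9% of entries, and SNORD95 overlapped with cells. Scaling moved these values. With quantile normalization, centring and edgeR, SNORD95 in exoRNeasy EVs over cells was negative (-0.29, -0.45 and -0.30), and SNORD96A was -0.96, -0.97 and -0.82. SNORD15B was 1.94, 2.77 and 2.92 in exoRNeasy EVs and 1.84, 2.50 and 2.82 in ATPS EVs, each over cells. In ATPS EVs over cells SNORD15A was 0.84, 0.83 and 1.11, SNORD95 was 0.98, 0.46 and 0.73, and SNORD96A was -0.87, -1.06 and -0.81 under the same 3 scalings.

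PC3 and MDA-MB-231 were compared over the 3 EV methods. This is another difference than the one between methods, but it uses the ATPS and exoRNeasy libraries by which the members were chosen. The p-values over EVs are given with that limit. None of the 4 was called in limma, where 33.3% of entries were. The log2 fold change of PC3 over MDA-MB-231 EVs was 0.63 (standard error 0.24, adjusted p = 0.0539) for SNORD15B, -0.33 (0.14, adjusted p = 0.0764) for SNORD95, -0.20 (0.28, adjusted p = 0.606) for SNORD15A and -0.13 (0.17, adjusted p = 0.569) for SNORD96A. Both lowest values sit close to the threshold of 0.05. SNORD15B passed it without replicate 1 of the MDA-MB-231 ATPS EVs (0.81, adjusted p = 0.0168), without replicate 1 of the MDA-MB-231 UC EVs (0.74, adjusted p = 0.042) and without either MDA-MB-231 cell library (adjusted p = 0.041 and 0.0429). SNORD95 passed it without replicate 2 of the MDA-MB-231 ATPS EVs (adjusted p = 0.0303) or UC EVs (adjusted p = 0.0247). In the donor cells the log2 fold change of PC3 over MDA-MB-231 was 0.72 (0.41, adjusted p = 0.245) for SNORD15B, 0.48 (0.24, adjusted p = 0.162) for SNORD95, -0.61 (0.48, adjusted p = 0.451) for SNORD15A and 0.24 (0.29, adjusted p = 0.665) for SNORD96A, and again none was called in limma, where 22.4% of entries were.

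The difference between the lines in ATPS over exoRNeasy EVs rests on the libraries by which the members were chosen, and is given for them as a description. PC3 minus MDA-MB-231 on the log2 scale, it was -1.93 (standard error 0.68) for SNORD15A, -1.92 (0.58) for SNORD15B, -0.03 (0.33) for SNORD95 and 0.16 (0.41) for SNORD96A. Without replicate 2 or replicate 1 of the MDA-MB-231 ATPS EVs, that of SNORD15A was -2.80 or -1.06. Over all entries, none passed the threshold in limma (0 of 357). At an unadjusted p under 0.05 there were 26 entries (7.28%), and edgeR and DESeq2 each called 1. Without replicate 1 of the MDA-MB-231 exoRNeasy EVs, 5 were called.

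A ratio of 2 snoRNAs within a library does not depend on the total of the class. Ratios were taken per base, as TPM divided by annotated length. SNORD15B was 0.380 and 0.443 of SNORD15A in PC3 ATPS EVs, 0.0729 and 0.0838 in PC3 exoRNeasy EVs, 0.979 and 0.942 in PC3 UC EVs, and 0.171 and 0.174 in PC3 cells. In MDA-MB-231 it was 0.231 and 0.371 of SNORD15A in ATPS EVs, 0.0491 and 0.0646 in exoRNeasy EVs, 0.293 and 0.373 in UC EVs, and 0.0451 and 0.101 in cells. The ratio was higher in both PC3 libraries than in both MDA-MB-231 libraries in 4 of 4 materials, donor cells included. In PC3 UC EVs the pair was nearly equal per base, while SNORD15A exceeded SNORD15B in all other groups.

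On the log2 scale the SNORD15B to SNORD15A ratio averaged -1.89 ± 1.45 in PC3 and -2.85 ± 1.31 in MDA-MB-231 (SD, n = 8 each), where the spread is mostly that between materials. The mean difference within materials was 0.96 (exact two-sided permutation p = 0.00154, the smallest that 1296 arrangements can give, and 0.00617 after Benjamini-Hochberg adjustment over the 4 ratio tests). It stayed between 0.82 and 1.11 when any library was left out, with an exact permutation p of at most 0.00617. That test includes the ATPS and exoRNeasy libraries by which SNORD15A was chosen, and its p-value is given with that limit. It also takes the libraries as separate units, but MDA-MB-231 replicate 2 had the higher ratio in 4 of 4 materials. With each replicate number of a line as 1 unit, which was tried after the data were seen, the exact permutation test has 6 arrangements and cannot go below p = 0.333, the value found. The MDA-MB-231 cell value of replicate 2 rests on 10 reads of SNORD15A and 1 read of SNORD15B. The share of reads from the common 3′ end in either snoRNA was not tested.

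SNORD96A was 0.170 and 0.228 of SNORD95 per base in PC3 ATPS EVs, 0.377 and 0.359 in PC3 exoRNeasy EVs, 0.161 and 0.143 in PC3 UC EVs, and 0.486 and 0.439 in PC3 cells. In MDA-MB-231 it was 0.137 and 0.180 in ATPS EVs, 0.375 and 0.299 in exoRNeasy EVs, 0.138 and 0.139 in UC EVs, and 0.559 and 0.532 in cells. The order of the material means was the same in both lines, with cells first and exoRNeasy EVs next, but ATPS and UC EVs overlapped in MDA-MB-231. SNORD95 was chosen as higher in ATPS than in exoRNeasy EVs, so the order of these methods in this ratio is a description. PC3 and MDA-MB-231 differed by 0.09 on the log2 scale (exact permutation p = 0.392, adjusted p = 0.392). Between UC EVs and cells this ratio differed by -1.79, and the SNORD15B to SNORD15A ratio by 2.38, each with the same sign in both lines and the smallest p of the 36 arrangements (exact permutation p = 0.0556, adjusted p = 0.0741), so that this design could not reach 0.05.

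Between the hosts, SNORD15A was 2.96 to 3.02 times SNORD95 per base in PC3 exoRNeasy EVs and 0.818 to 1.31 times in MDA-MB-231 exoRNeasy EVs. In all other libraries it was 0.0775 to 0.266 times SNORD95, cells and UC EVs included. This ratio holds the pair of values by which the members were chosen, and is a description.

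**Figure D4:**
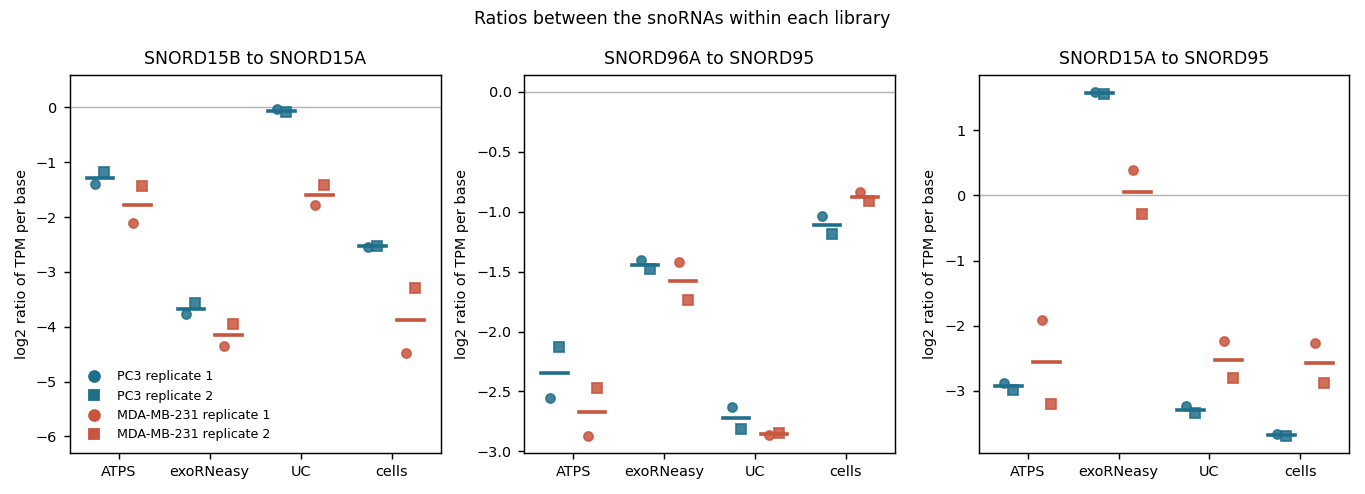
Log2 ratios of TPM per base within each library, by material and line. Points are libraries and lines are means of 2. The SNORD15B to SNORD15A ratio is higher in PC3 than in MDA-MB-231 in every material. The SNORD96A to SNORD95 ratio is highest in cells in both lines. The SNORD15A to SNORD95 ratio is above 0 in 3 of 4 exoRNeasy libraries and in no other. SNORD15A and SNORD95 were chosen on ATPS against exoRNeasy EVs.

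The entries most like each member were found by Pearson's r of log2(TPM + 1) over the 16 libraries among 280 entries with a mean of at least 10 TPM, and these are descriptions, since all points come from the same few libraries and share their depth. SNORD15A was most like SNORD123 (0.92), SNORD22 (0.86) and SNORA3A (0.79), and SNORD15B most like SNORA44 (0.93), SNORD89 (0.92) and SNORD94 (0.91). SNORD95 was most like SNORD62A and SNORD62B, which have identical values and may hold the same reads (0.87), and SNORD14E (0.86). SNORD96A had no close match, with SNORD90 at 0.64, SNORD37 at 0.62 and SNORD12C at 0.54. Members of one host were not each other's nearest entries. SNORD15A and SNORD15B had r = 0.66, and SNORD95 and SNORD96A had r = 0.14. SNORD15B and SNORD95, of different hosts, had r = 0.67.

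Of 40 C/D box snoRNAs that lie in a ribosomal protein gene or RACK1, the 4 included, 17 were higher in UC EVs than in cells in limma, 9 were lower and 14 were not called, where 43.1% of all entries were higher and 6.16% lower. Their median log2 fold change was 0.43, against 1.48 over all entries. SNORD14B in RPS13 (4.41) and SNORD15B (4.25) were the highest of them, and SNORD4B in RPL23A (-1.64) and SNORD101 in RPS12 (-1.34) the lowest. Of 16 C/D box snoRNAs of at least 120 bases, which include SNORD15A and SNORD15B, 10 were higher and none was lower (0 of 16), with a median of 2.57, beside the same 43.1% of all entries. SNORD3E, a copy of the U3 snoRNA (7.90), and SNORD94 (6.42) were the highest. Several of the 16 are copies of U3, which may share reads and are then not separate entries. Across 193 C/D box entries, length and the log2 fold change of UC EVs over cells had a Spearman coefficient of 0.47, and length and that of ATPS over exoRNeasy EVs had 0.00, both as descriptions across entries that are not independent. Between ATPS and exoRNeasy EVs the 40 snoRNAs had a median log2 fold change of 0.04 and the 16 long ones -0.32. SNORD15A, at -2.50, was the lowest of both lists, and nothing is read from that place, since it was chosen on this contrast.

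By class, 74 of 212 C/D box entries were higher in UC EVs than in cells and 22 lower, with a median log2 fold change of 0.71. H/ACA box entries, which guide pseudouridylation, had 73 of 133 higher and none lower (0 of 133), with a median of 2.97, and all 3 scaRNAs tested were higher. The 22 entries that were lower were thus all C/D box snoRNAs. Over EVs, 3 of the 40 snoRNAs in ribosomal protein genes or RACK1 were higher in PC3 than in MDA-MB-231 and 4 were lower, and of the 16 long ones 8 were lower and none was higher (0 of 16), where 18.2% of all entries were higher and 15.1% lower.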

How the data were processed

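Libraries were prepared with a NEBNext small RNA kit. The authors removed reads below Q20 and those outside 18 to 35 bases, mapped the rest to hg38 with STAR (build and aligner stand in the submitters' processing notes too) and used COMPSRA for annotation. Reads that map to several places were kept, with more weight on unique ones. For STAR and COMPSRA a version is not given in the sources used here. What the authors deposited as TPM is CPM over the reads of a class, without a length term. Of the snoRNA values, 100% were whole multiples of 1 read within 0.1 read, which gave the reads per library. The miRNA table, also CPM as deposited, served for cell type markers only, and the circRNA table was not used. Markers of red blood cells (1 of 3 listed in the miRNA table, at most 12 reads) and of epithelium were looked for, and those of liver and serum (0 of 1) and of white blood cells (0 of 3) were not in the table.

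limma 3.58.1 (R 4.3.3) was fitted on log2(TPM + 1) with trend and robust, 1 mean for each of 8 groups, over entries of at least 1 TPM in at least 2 libraries (357 of 413). The analysis had been planned for TPM, and the same test was used for CPM. The added 1 TPM makes fold changes of low entries smaller. Since 1 read stood for 0.0922 to 60.1 TPM, a single read can also make them large. Adjusted p-values are Benjamini-Hochberg values over all entries, with a threshold of 0.05. Ratios within a library were compared with exact permutation tests within materials or lines (Python 3.11.15, numpy 2.4.6). edgeR 4.0.16 with TMM and DESeq2 1.42.0 on the recovered reads were among the alternatives. Simulated counts with known changes in UC EVs, and the same spread in every group, were used to test the limma fit. They do not show how the fit behaves where the spread differs between groups. All 8 pairs of replicates differed by more than sampling noise in a chi-square test and were kept apart.

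The 4 snoRNAs and the lists were chosen with earlier results of these data known. The rule for named entries took the 4 members, annotated copies of them, the 3 entries most like each, and the 2 highest and 2 lowest called entries of each list in a tested contrast. Of the latter, those of UC EVs over cells in the lists of host and length are printed. Of 413 entries, 369 matched a gene of GENCODE v44 by name, which gave positions, hosts and sequences. One sequence is not reported here.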

Additional observations from a re-analysis of the deposited data

Results flagged for a closer look

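SNORD15B had a difference between the lines in ATPS over exoRNeasy EVs of -1.92 on the log2 scale, PC3 minus MDA-MB-231, and stands out because both ATPS libraries were below both exoRNeasy libraries in PC3 and above them in MDA-MB-231. It had 627 and 674 TPM in PC3 ATPS EVs and 1291 and 1452 TPM in PC3 exoRNeasy EVs, and 1025 and 493 TPM in MDA-MB-231 ATPS EVs and 429 and 365 TPM in MDA-MB-231 exoRNeasy EVs. The members were chosen on these libraries, so the difference is a description and was not tested. The value in MDA-MB-231 exoRNeasy EVs rests on 48 and 16 reads. No other of the 4 snoRNAs met this criterion in that difference or in that of UC EVs over cells, the only differences checked for it. SNORD95 in exoRNeasy EVs against cells, not among those checked, also turned round between the lines. It had 2732 and 2728 TPM in PC3 exoRNeasy EVs, below 3169 and 3029 TPM in PC3 cells. In MDA-MB-231 it had 3099 and 3214 TPM in exoRNeasy EVs, above 2405 and 2044 TPM in cells.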

How the results depend on the processing

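Depth limits SNORD15B most, with 1 read in an MDA-MB-231 cell library and 16 in an exoRNeasy library, and 2 libraries a group limit every test. The calls of SNORD15A, SNORD15B and SNORD95 in UC EVs over cells, averaged over the lines, stood under all 11 other settings and all 16 omissions of a library, and so did the direction of SNORD15A and SNORD95 between ATPS and exoRNeasy EVs. SNORD96A in UC EVs over cells was called lower with quantile normalization (-0.82), with centring (-0.98) and with edgeR (-0.61), and in PC3 when only the groups compared were fitted (-0.44). In MDA-MB-231 its log2 fold change was -0.50 with quantile normalization, -1.01 with centring, -0.32 with edgeR and -0.12 with DESeq2. For PC3, SNORD15A lost its call with a pseudocount of 0.1 (1.55), with no filter (1.54), quantile normalization (0.77), centring (1.04), limma without trend and robust (1.54), edgeR (1.09) and DESeq2 (1.39), and without each PC3 library (1.44 to 1.65). SNORD95 in PC3 lost its call with centring (0.66) and edgeR (0.71), and SNORD15A in MDA-MB-231 with quantile normalization (1.12) and centring (1.01). The cause of these changes was not tested.

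The difference between lines in UC EVs over cells turned positive with centring for SNORD15A (0.022), SNORD15B (0.22) and SNORD96A (0.064) and with quantile normalization for SNORD15B (0.59), and for SNORD95 it was called with no filter (-1.02) and without 3 of the 16 libraries, one at a time (-1.02 and -1.23 where called, -1.23 to -0.81 over all omissions). Over EVs, PC3 against MDA-MB-231 was called for SNORD15B with a pseudocount of 10 (0.62), with no filter (0.63) and without 4 of the 16 libraries, one at a time (0.63, 0.74 and 0.81 where called, 0.46 to 0.81 over all omissions), and for SNORD95 with centring (-0.56), DESeq2 (-0.51) and without either of 2 libraries (-0.40 in both, -0.40 to -0.26 over all omissions), and SNORD15A had 0.090 without replicate 1 of the MDA-MB-231 ATPS EVs (-0.49 to 0.090 over all omissions). In cells, SNORD15A was called lower in PC3 with quantile normalization (-1.42) and centring (-1.50), SNORD15B had -0.78 and -0.16 under these, SNORD95 had -0.40 with centring, and SNORD96A had -0.28, -0.64, -0.14 with edgeR and -0.070 with DESeq2. The difference between lines in ATPS over exoRNeasy EVs was 0.19 for SNORD95 without replicate 1 of the MDA-MB-231 ATPS EVs (-0.25 to 0.19 over all omissions), and for SNORD96A -0.081 with quantile normalization, -0.065 with centring and -0.054 without replicate 2 of the PC3 ATPS EVs (-0.054 to 0.37). SNORD95 in ATPS over exoRNeasy EVs was 1.26 with quantile normalization, and SNORD96A in exoRNeasy over UC EVs was 0.010 with centring.

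The number of entries called in UC EVs over cells of PC3 was 39 with a pseudocount of 0.1, 92 with no filter, 39 with quantile normalization, 132 with edgeR, 118 with DESeq2, 192 with only the groups compared and 31 to 78 without single libraries. In MDA-MB-231 it was 103 with quantile normalization. For the difference between the lines it was 71 with no filter, 12 with quantile normalization and 20 to 85 without single libraries, and for that in ATPS over exoRNeasy EVs it was 1 with no filter, 2 without trend and robust, 1 with edgeR, 1 with DESeq2 and 0 to 5 without single libraries. Entries called higher and lower were 54 and 6 in UC EVs over cells of PC3 (18 and 21 with quantile normalization, 39 and 24 with centring, 104 and 28 with edgeR), 159 and 22 in MDA-MB-231 (48 and 55 with quantile normalization, 94 and 63 with centring), 6 and 35 for the difference between these (3 and 9, and 17 and 22), 65 and 54 between the lines over EVs (48 and 72 with centring, 50 and 83 with edgeR) and 72 and 8 in cells (41 and 36, 44 and 34, 79 and 32 with edgeR, 59 and 22 with DESeq2).

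Replicate numbers were not taken as pairs. Differences between replicate 1 and 2 of 2 materials correlated at 0.497 to 0.724 among MDA-MB-231 EVs, at 0.0852 to 0.190 between these and their cells, and at -0.163 to 0.192 in PC3, over 138 entries. With the replicate block, SNORD95 was called for the difference between the lines in UC EVs over cells (-1.02, adjusted p = 0.0183 in limma), and SNORD15B (0.63, adjusted p = 0.0301) and SNORD95 (-0.33, adjusted p = 0.0261) for PC3 against MDA-MB-231 EVs, and no other call of the 4 changed. The block gave 189 entries called in UC EVs over cells, against 176 without it. With each replicate number as 1 unit, added after the data were seen, the SNORD15B to SNORD15A ratio between the lines kept its difference of 0.96 with an exact permutation p of 0.333, the smallest of that design, and a pseudocount of 1 read or leaving out a library changed no side of the threshold in the 4 ratio tests.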
